A study of Mus musculus with 8 samples.

Results

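The data described here are the messenger RNA levels of 9 genes that read or maintain CpG methylation, in neonatal cardiomyocytes (NCMs) of mice exposed in utero to filtered air (FA) or diesel exhaust (DE). The genes were chosen by name, with earlier results of these data known, and the rule used no measured value: Uhrf1, Uhrf2, Dnmt1, Mbd1, Mbd2, Mbd3, Mbd4, Tdg and Zbtb33. All 9 were found by Entrez identifier among the 27179 genes of the count table, and all 9 passed the filter on low counts. Pregnant C57Bl/6 J dams breathed FA or DE from the day of the vaginal plug until late gestation, and hearts of their offspring were taken at postnatal day 0. Per the study's methods each library came from 1 male neonatal heart, and the 8 libraries comprise 4 FA (numbered 2, 3, 4 and 6) and 4 DE (numbered 1, 3, 5 and 7). No library was linked to a dam by its labels, so littermates could not be identified. In their counts, FA libraries 2 and 4 were the closest pair within a group (chi-square per gene 5.37, lower being more alike). Next came DE 1 and 7 (17.1), FA 3 and 6 (19.8) and DE 3 and 5 (21.6). The other pairs within groups lay between 29.9 and 67.4. The tests below take the libraries as independent, and leaving out 1 library keeps its closest partner. The cause of this pairing was not tested. Both groups were prepared alike: hearts were trimmed, dissociated enzymatically, and plated for an hour in medium with Ara-C, which blocks DNA synthesis, so that attached fibroblasts could be left behind. The suspended cells are therefore enriched for cardiomyocytes but remain a mixture, and in such bulk RNA a change in the number of cells of a type and a change in RNA per cell cannot be told apart.

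In mammalian cells, DNA methylation is copied after each replication fork. UHRF1 binds the half-methylated CpG left behind the fork and brings DNMT1, the methyltransferase that methylates the new strand. Other proteins read the completed mark: MBD1, MBD2 and the zinc finger protein Kaiso, encoded by Zbtb33, bind methylated DNA and recruit repressor complexes, whereas MBD3 joins a related complex with little preference for methylated CpG. MBD4 and TDG are glycosylases that remove the thymine left when methylcytosine deaminates, and TDG also removes oxidised methylcytosine during active demethylation.

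Library totals ran from 17943024 to 39839737 counts. Levels are given as CPM, the counts of a gene per 1e6 counts of the library, scaled by TMM factors. A gene was called where the Benjamini-Hochberg adjusted p of edgeR's quasi-likelihood test was at most 0.05 and the groups differed by at least 25%. The 6 cardiomyocyte markers summed to between 29021 and 34732 CPM in FA and between 26343 and 33859 CPM in DE, with 0 of 6 called and 1 at an unadjusted p under 0.05. All 6 were lower in DE by sign (median -0.10 on the log2 scale), and with offsets for length and GC content 2 were called lower, Actc1 at -0.35 and Nkx2-5 at -0.43. Among all tested genes 3828 had an unadjusted p under 0.05. The names of DE libraries 3 and 5 carry the number 12, and those of the other 6 libraries the number 11, whose meaning the labels do not give. Those 2 DE libraries also had the lowest trends of expression with transcript length, which is given beside the members it moves with.

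Of the 9 members, 2 were called, both higher in DE, and 0 were called lower. No other member had an unadjusted p under 0.05, and DESeq2, edgeR's likelihood ratio test and limma-voom called the same 2 members. Of all tested genes 5.8% were called, 3.58% higher and 2.22% lower. This split of 536 genes higher and 332 lower depended on the scaling and the test: it was 803 and 217 with library totals alone, and 44 and 70 with the 25% difference built into the test. The 2 called members were Uhrf1 and Dnmt1, the pair that copies methylation at the fork. They were also the only members whose FA and DE libraries did not overlap, against 14.7% of all tested genes in either direction and 7.43% with DE above FA. The median log2 fold change of the 9 members was 0.05, and that of all tested genes was 0.0037. The plot of the members by library shows the separation of these 2 genes and the overlap of the other 7.

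**Figure D1:**
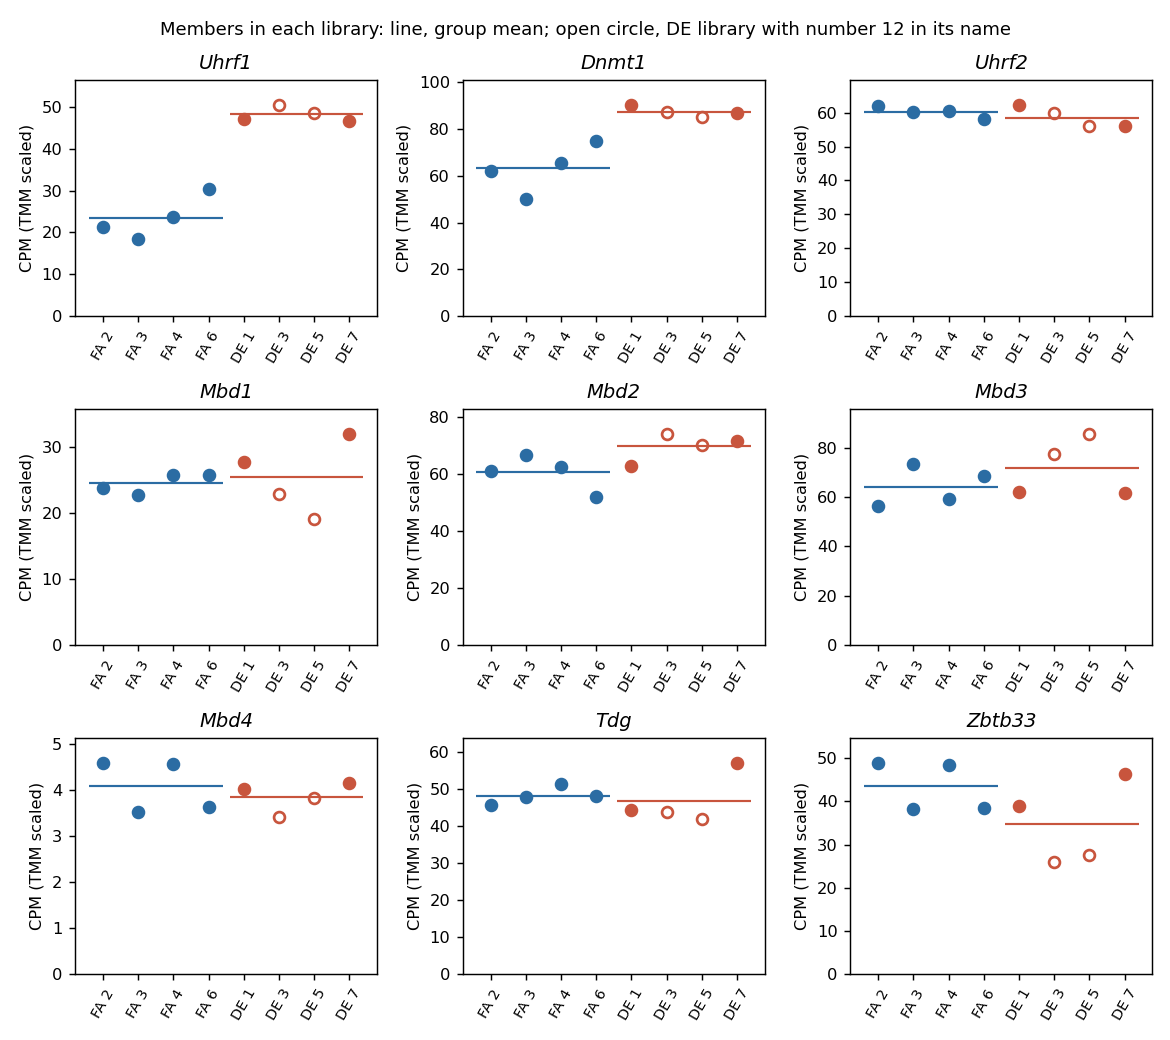
Level of each of the 9 members, in TMM-scaled CPM on an axis from 0, in each of the 8 libraries (points; FA blue, DE red, open circles for DE libraries 3 and 5) with the group mean as a line. In Uhrf1 and Dnmt1 every DE library sits above every FA library; in the other 7 genes the groups overlap.

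Uhrf1 (Entrez 18140, chromosome 17, 56303337 to 56323486, GRCm38) had 21.3, 18.4, 23.7 and 30.3 CPM in FA libraries 2, 3, 4 and 6, and 47.2, 50.4, 48.5 and 46.7 CPM in DE libraries 1, 3, 5 and 7. The lowest DE library thus lay well above the highest FA library, and the DE libraries were closer to one another than the FA libraries were. The group means were 23.4 ± 5.07 CPM (SD, n = 4) in FA and 48.2 ± 1.67 CPM (SD, n = 4) in DE. Uhrf1 rose 2.06-fold in DE, a log2 fold change of 1.04 (SE 0.14, 95% interval 0.74 to 1.35, edgeR adjusted p = 0.00272). It was called in 21 of 21 other analyses, including each of the 8 that left out 1 library, where the log2 fold change ran from 0.94 to 1.19. With the 6 libraries of number 11 alone it was 1.00 (edgeR adjusted p = 0.0163), where 1.75% of genes were called, 0.96% higher and 0.785% lower.

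Dnmt1 (Entrez 13433, chromosome 9, 20907206 to 20959888) had 62.1, 50.1, 65.4 and 75.1 CPM in FA libraries 2, 3, 4 and 6, and 90.3, 87.1, 85.0 and 86.7 CPM in DE libraries 1, 3, 5 and 7. FA library 6 was the highest of the FA group for both Uhrf1 and Dnmt1, and FA library 3 the lowest for both. Dnmt1 was 38.1% higher in DE, from a mean of 63.2 ± 10.3 CPM (SD, n = 4) to one of 87.3 ± 2.19 CPM (SD, n = 4), with a log2 fold change of 0.47 (SE 0.12, 95% interval 0.21 to 0.72, edgeR adjusted p = 0.0434). This call was close to the threshold. It was kept in 11 of 21 other analyses but in only 1 of the 8 that left out a library, the one without FA library 6. The edgeR adjusted p was 0.126 without FA library 2, 0.0755 without FA 3, 0.113 without FA 4, 0.0610 without DE 1, 0.106 without DE 3, 0.0723 without DE 5 and 0.0648 without DE 7. Over all 8 of these fits the log2 fold change ran from 0.37 to 0.56, and in the libraries of number 11 it was 0.48 (edgeR adjusted p = 0.131).

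Fibroblast markers were also higher in DE, all 6 by sign, though only 1 of the 6 had groups that did not overlap. Together the 6 summed to between 1509 and 2419 CPM in FA and between 2654 and 4567 CPM in DE, so the sums did not overlap. Of the 6, 2 were called higher (4 by DESeq2): Col1a1, a fibrillar collagen chain, at 0.95 and Dcn, the proteoglycan decorin, at 0.56 on the log2 scale. The list's median was 0.62, against 0.70 with length and GC offsets, where 5 of 6 were called higher, and 0.85 in the libraries of number 11, where 3 were. The Dcn call was lost in 6 of 8 fits without a library (FA 2, 3 or 4, or DE 1, 3 or 7), where its log2 fold change lay between 0.48 and 0.61. Of 6 erythroid markers 1 was called, Slc4a1, the red cell anion exchanger, at 0.95 and at 1.28 to 2.09 CPM in FA against 2.42 to 4.48 CPM in DE, a call lost without FA 2, 3, 4 or 6 or DE 1 or 3 (log2 fold change 0.74 to 1.07). The erythroid sum ran from 759 to 1880 CPM in FA and from 1209 to 2022 CPM in DE. Endothelial (5 markers), smooth muscle and pericyte (5) and mesothelial (4) lists had 0 called by edgeR and by DESeq2 (1, 0 and 1 at an unadjusted p under 0.05), as had by edgeR the 5 leukocyte markers tested, which summed to 12.1 to 18.5 CPM in FA and 15.3 to 26.1 CPM in DE, with Cd3e below the filter (2 leukocyte markers at an unadjusted p under 0.05, and 1 called by DESeq2). The part of these cells in the Uhrf1 and Dnmt1 differences was not tested.

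**Figure D2:**
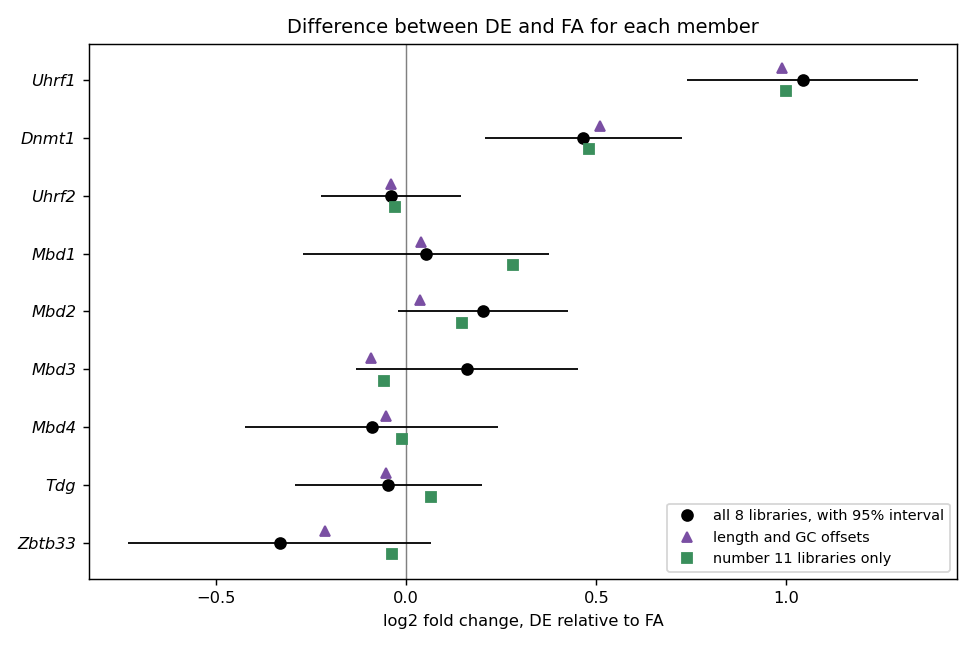
Log2 fold change of DE relative to FA for each member: black points with 95% intervals, edgeR on all 8 libraries; triangles, the same fit with length and GC offsets; squares, the 6 libraries of number 11 alone. Uhrf1 at 1.04 and Dnmt1 at 0.47 stay to the right of 0 in all 3 analyses, whereas Mbd3 moves from 0.16 to -0.09 and -0.06.

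RefSeq windows of 250 bases before and 50 after a transcript start (GRCm38.p6) were given for 7 of the 9 members, 10 windows in all, and were not given for Mbd1 and Mbd2. They were searched on both strands for the letters of an E2F site, TTTCCCGC, TTTCGCGC, TTTGCCGC or TTTGGCGC, since E2F factors act on many genes of the G1 to S transition. Of the 7 members, 2 held the letters, Uhrf1 and Dnmt1, the same 2 that were called higher. These 2 were also the only members with more than 1 window, and so had more chances of a match. Their matches are shown with the letters in capitals, 5′ to 3′ on the strand of the gene. The Uhrf1 stretch is the 250 bases before the transcript start at 56304313 and lies within no annotated exon of the gene, and its match begins at position -185. The Dnmt1 stretch is cut to 30 bases, because here the window runs through the first exon of another Dnmt1 transcript. All 30 bases lie within annotated exon of the gene, and the match begins at position -219 from the start at 20952623.
Uhrf1 upstream, chr17:56304063-56304312, plus strand: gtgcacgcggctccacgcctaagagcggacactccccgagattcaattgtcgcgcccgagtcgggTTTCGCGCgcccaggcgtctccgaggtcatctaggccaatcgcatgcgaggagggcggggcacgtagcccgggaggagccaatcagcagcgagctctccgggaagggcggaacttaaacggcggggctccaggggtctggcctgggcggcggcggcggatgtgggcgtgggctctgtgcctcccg
Dnmt1 site, chr9:20952824-20952853, minus strand: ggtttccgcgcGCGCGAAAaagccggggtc

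The Dnmt1 letters are the reverse complement of the Uhrf1 letters, TTTCGCGC, and the same Dnmt1 window held a second match, TTTGGCGC, at position +34. These windows had 33 CpG each, against a median of 7 over all 32851 windows, but members that were not called had like values (Zbtb33 34, Uhrf2 28, Tdg 26, Mbd4 25 and Mbd3 22), and the other windows of Uhrf1 (12) and Dnmt1 (2 and 12) held fewer. The letters occurred in 2.26% of all windows, and in 4.55% of the tested genes with a window. Among genes called higher in DE 9.49% held them, and among genes called lower 1.56%. A match of letters is a description of the window and does not show that a factor was bound there.

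Uhrf1 and Dnmt1 were then set against the genes of DNA replication. Of 14 S-phase genes, 13 were called higher and 0 lower, with a median log2 fold change of 0.73. The list holds the MCM helicase subunits, the loading factors Cdc6 and Cdt1, the helicase partner Cdc45, the nucleotide enzymes Rrm2 and Tyms, the transcription factor E2f1 and the cyclins that drive S-phase entry. The largest difference among the 13 was that of E2f1, 1.21 (SE 0.13, edgeR adjusted p = 0.000739), followed by Mcm6 at 0.88, Mcm3 at 0.83, Mcm5 at 0.82 and Ccne1 at 0.81. Cdc45, Cdt1, Cdc6, Mcm2, Rrm2, Mcm7, Mcm4 and Tyms lay between 0.48 and 0.75, and the remaining gene, Ccne2, named after its value was seen, was at 0.16 (edgeR adjusted p = 0.620). Leaving out 1 library gave 8 to 13 calls in the list, the 6 libraries of number 11 gave 4, with a median of 0.65, and the 25% difference built into the test gave 3. The calls of Mcm4 (without FA 2, 3 or 4, or DE 3, 5 or 7), Cdc6 (FA 2 or 3, or DE 3, 5 or 7), Cdt1 and Tyms (FA 2, 3 or 4, or DE 3 or 5) and Rrm2 (FA 2 or 4, or DE 3) were lost without the libraries named. Their log2 fold changes in those fits were 0.39 to 0.55 for Mcm4, 0.63 to 0.70 for Cdc6, 0.65 to 0.76 for Cdt1, 0.44 to 0.47 for Tyms and 0.64 to 0.65 for Rrm2.

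The geometric mean of the 14 S-phase genes was 17.8, 16.0, 19.6 and 23.3 CPM in FA libraries 2, 3, 4 and 6, and 28.8, 31.98, 32.4 and 31.8 CPM in DE libraries 1, 3, 5 and 7. FA library 6 was again the highest and FA library 3 the lowest of their group, as for Uhrf1 and Dnmt1. Uhrf1 stood above this mean by a factor of 1.15 to 1.30 in FA and 1.47 to 1.64 in DE. The difference in log2 ratio was 0.35 (exact two-sided permutation p = 0.0286, adjusted p = 0.0476 over the 5 ratios tested), so Uhrf1 rose by more than the S-phase mean. For Dnmt1 the ratio to the S-phase mean was 3.13 to 3.50 in FA and 2.63 to 3.13 in DE, a log2 difference of -0.24 that missed the threshold (exact permutation p = 0.0571, adjusted p = 0.0714). With offsets for length and GC content the latter difference was -0.16 and passed (exact permutation, adjusted p = 0.0357). A comparison of 4 with 4 libraries cannot give a p below 0.0286.

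The balance between the partners also differed. The ratio of Uhrf1 to Dnmt1 was 0.343, 0.367, 0.362 and 0.403 in FA libraries 2, 3, 4 and 6, and 0.523, 0.579, 0.570 and 0.538 in DE libraries 1, 3, 5 and 7. Every DE library held more Uhrf1 per Dnmt1 than any FA library, with a log2 difference of 0.58 (exact two-sided permutation p = 0.0286, adjusted p = 0.0476). In the libraries of number 11 the difference was 0.53, a comparison of 4 with 2 libraries that cannot pass the threshold. The 2 genes nevertheless deviated together inside the groups. Their log2 deviations from the group means correlated at 0.93 over 8 libraries, which share their depth and scaling. Subtracting the group means leaves fewer than 8 free values.

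**Figure D3:**
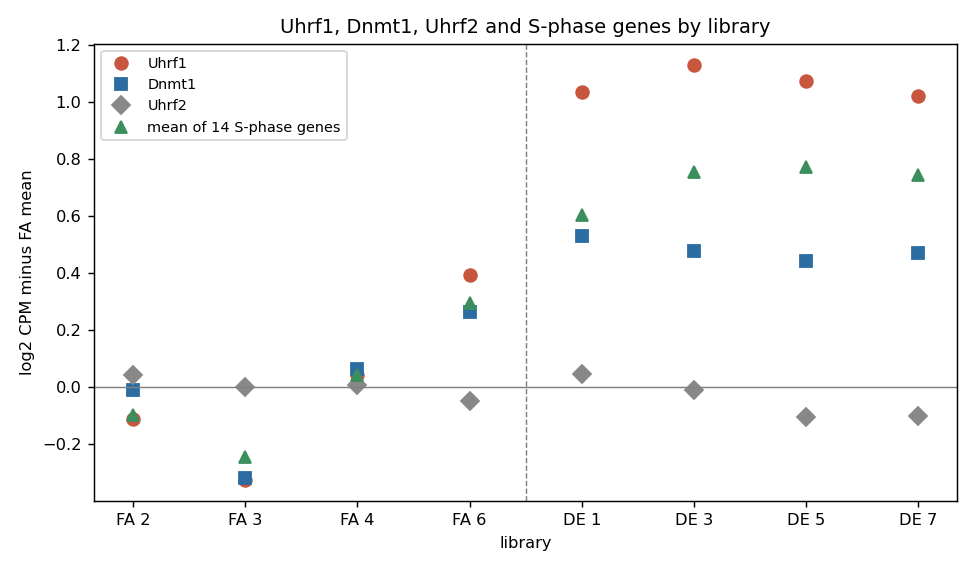
Log2 CPM minus the FA mean, in each library, for Uhrf1 (circles), Dnmt1 (squares), Uhrf2 (diamonds) and the mean of 14 S-phase genes (triangles); the dashed line separates FA from DE. In DE the order is Uhrf1, S-phase mean, Dnmt1 and Uhrf2 in each of the 4 libraries, and in FA the first 3 follow one another from library to library.

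By a rule fixed with the gene lists, the genes whose deviations within groups were most like those of Uhrf1, among 10706 genes averaging 5 CPM or more, were Rrm2 (r = 0.98), Mcm2 (0.98), Gask1b (0.98), Pclaf (0.97) and Ttyh2 (0.97), and Dnmt1 ranked 11. For Dnmt1 they included Prim2 (0.98), Smc1a, Ogn and Aspn (0.95 each), and Uhrf1 ranked 10. Rrm2, Mcm2 and Pclaf are replication genes, as is Prim2, a primase subunit, whereas Ogn and Aspn encode proteoglycans of the extracellular matrix, of the same family as Dcn. These correlations rest on 8 libraries, with fewer free values once the group means are subtracted, and are given as a description. The highest of 10706 such correlations can be high by chance alone.

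Among 7 cofactors of maintenance methylation, 4 were called higher and 0 lower, with a median log2 fold change of 0.67 over the 6 tested. Pcna, the sliding clamp that holds DNMT1 at the fork, rose from 75.1 to 98.3 CPM in FA to 123 to 146 CPM in DE, a log2 fold change of 0.73 (SE 0.11, edgeR adjusted p = 0.00498). Lig1, the ligase of Okazaki fragments, whose methylated form UHRF1 binds, rose by 1.02 (SE 0.14), and Pclaf, the PCNA-associated factor that together with UHRF1 guides DNMT1, by 1.07 (SE 0.15; edgeR adjusted p = 0.00300 each). These 3 were called in all 8 fits that left out a library. Hells, the chromatin remodeller needed for methylation of repeats, was at 8.87 to 13.9 CPM in FA and 16.1 to 21.8 CPM in DE, 0.61 higher (edgeR adjusted p = 0.0390), and this call remained in 1 of those 8 fits, that without DE library 1, and was lost in the other 7, where its log2 fold change lay between 0.49 and 0.68.

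The other cofactors were not called. Cdca7, which activates Hells, was at 0.24 (edgeR adjusted p = 0.405). Usp7, the deubiquitinase that protects UHRF1 and DNMT1 from degradation, was the most abundant of the list at 168 to 230 CPM and was at -0.12 (edgeR adjusted p = 0.594), turning to 0.04 in the libraries of number 11. Dppa3, an oocyte and germ cell protein that displaces UHRF1, had 0 counts in all 8 libraries. The E2F letters were in the windows of Hells, Cdca7, Lig1 and Pclaf, 4 of 6 cofactors with a window, in 6 of 12 S-phase genes with a window, in 2 of 12 germline genes (Sycp3 and Slc25a31) and in 1 of 12 base excision repair genes (Nthl1). These last 3 genes, named after the match was seen, were not called.

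Uhrf2 (Entrez 109113, chromosome 19, 30030430 to 30093726) encodes the paralog of UHRF1, which binds hemimethylated DNA but does not replace UHRF1 in bringing DNMT1 to the fork. It had 62.0, 60.2, 60.5 and 58.2 CPM in FA libraries 2, 3, 4 and 6, and 62.2, 59.8, 56.0 and 56.1 CPM in DE libraries 1, 3, 5 and 7. The groups overlapped and the libraries spanned a narrow range. The log2 fold change was -0.04 (SE 0.08, edgeR adjusted p = 0.790) with a 95% interval from -0.23 to 0.14, which a 25% difference in either direction lies outside. With library totals alone the log2 fold change turned to 0.03. The ratio of Uhrf1 to Uhrf2 went from 0.305 to 0.520 in FA to 0.758 to 0.865 in DE, a log2 difference of 1.11 (exact two-sided permutation p = 0.0286, adjusted p = 0.0476).

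Levels between members were compared per kilobase of exon. In FA the order was Mbd3 (32.3 CPM per kb), Mbd2 (18.9), Tdg (8.96), Dnmt1 (8.57), Zbtb33 (8.50), Uhrf2 (7.01), Uhrf1 (5.50), Mbd1 (3.65) and Mbd4 (0.774). Among neighbours in this order, the library ranges of Tdg and Dnmt1, of Dnmt1 and Zbtb33, and of Uhrf2 and Uhrf1 overlapped in FA. Further apart in the order, the range of Dnmt1 also overlapped those of Uhrf2 and Uhrf1, and that of Tdg overlapped that of Zbtb33. In DE, Dnmt1 (11.8) and Uhrf1 (11.3) ranked 3 and 4 with overlapping ranges, while Mbd3 (36.0) and Mbd2 (21.7) stayed at the top. Below Uhrf1 came Tdg (8.68), Uhrf2 (6.82), Zbtb33 (6.77, overlapping Uhrf2 and Tdg), Mbd1 (3.80) and Mbd4 (0.731). Uhrf1 thus moved from rank 7 to rank 4 in level per kb. The length used covers all annotated exons and not the isoform expressed.

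The methyl-CpG binding domain genes were not called. Mbd1 (Entrez 17190, chromosome 18, 74267605 to 74282737), whose product recruits a histone H3 lysine methyltransferase, had 23.8, 22.7, 25.7 and 25.7 CPM in FA libraries 2, 3, 4 and 6, and 27.7, 22.9, 19.2 and 31.98 CPM in DE libraries 1, 3, 5 and 7. The DE libraries spread to both sides of the FA range. The log2 fold change was 0.05 (SE 0.15, 95% interval -0.27 to 0.38, edgeR adjusted p = 0.851), and it was -0.08 without DE library 7 and 0.28 in the libraries of number 11 (edgeR adjusted p = 0.275). DE libraries 3 and 5, of number 12, were the lower ones.

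Mbd2 (Entrez 17191, chromosome 18, 70568225 to 70629134), the methyl-binding subunit of one form of the NuRD deacetylase complex, had 61.3, 66.7, 62.7 and 52.1 CPM in FA libraries 2, 3, 4 and 6, and 63.1, 74.2, 70.3 and 71.8 CPM in DE libraries 1, 3, 5 and 7. Of the DE libraries 3 lay above all FA libraries and 1, DE library 1, lay among them. The log2 fold change was 0.20 (SE 0.10, 95% interval -0.02 to 0.43, edgeR adjusted p = 0.237), and it was 0.04 with offsets for length and GC content.

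Mbd3 (Entrez 17192, chromosome 10, 80392539 to 80399531), which takes the place of MBD2 in the other form of NuRD, had 56.1, 73.1, 59.3 and 68.3 CPM in FA libraries 2, 3, 4 and 6, and 62.2, 77.3, 85.5 and 61.6 CPM in DE libraries 1, 3, 5 and 7. The values of DE libraries 1 and 7 fell inside the FA range and those of DE libraries 3 and 5 above it. The log2 fold change was 0.16 (SE 0.13, 95% interval -0.13 to 0.45, edgeR adjusted p = 0.476). It turned to -0.06 in the libraries of number 11, to -0.05 with the number as a term and to -0.09 with offsets. The annotation places a long noncoding RNA gene, Gm30823, over 2530 bases of Mbd3, and the strand setting of the counts is not given in the sources used here.

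The ratio of Mbd2 to Mbd3, which compares the 2 exclusive forms of NuRD at the RNA level, was 0.763 to 1.09 in FA and 0.822 to 1.17 in DE. The groups overlapped, with a log2 difference of 0.05 (exact two-sided permutation p = 0.743, adjusted p = 0.743). Of the 12 other NuRD subunits 0 were called, by edgeR and in all 21 other analyses, DESeq2 included, with a median of 0.03 and 1 at an unadjusted p under 0.05. The 2 most abundant were Chd4, the remodelling ATPase, at -0.36 (edgeR adjusted p = 0.0955) and Rbbp7, a histone-binding subunit, at 0.04 (edgeR adjusted p = 0.814).

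**Figure D4:**
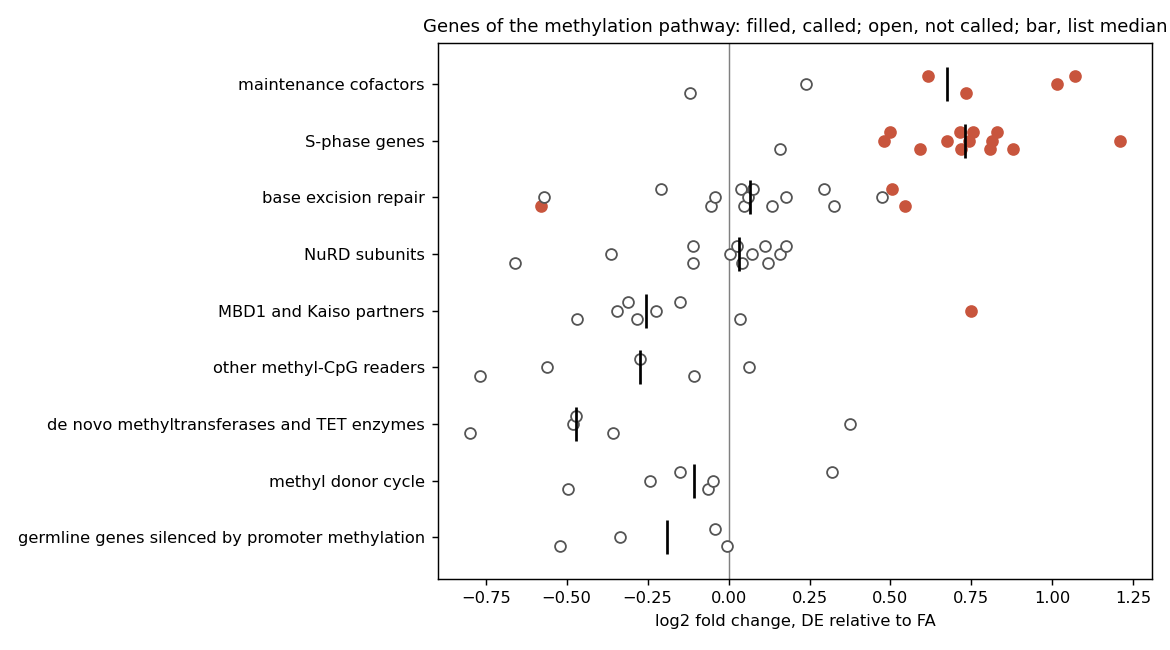
Log2 fold change of DE relative to FA for every tested gene of 9 lists around the members (points; filled, called; open, not called) with each list's median as a bar. The calls above 0 gather in the maintenance cofactors (4 of 6 tested) and the S-phase genes (13 of 14), and the only call below 0 is 1 of 16 base excision repair genes.

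Mbd4 (Entrez 17193, chromosome 6, 115840697 to 115853400), the glycosylase that carries a methyl-CpG binding domain, was the least expressed member, with 71 to 172 counts per library. It had 4.60, 3.54, 4.57 and 3.64 CPM in FA libraries 2, 3, 4 and 6, and 4.02, 3.41, 3.84 and 4.16 CPM in DE libraries 1, 3, 5 and 7. All but 1 of the DE libraries lay within the FA range, and the log2 fold change was -0.09 (SE 0.15, 95% interval -0.42 to 0.24, edgeR adjusted p = 0.738). It ran from -0.15 to -0.02 when 1 library was left out and was -0.01 in the libraries of number 11. A 25% difference in the downward direction lies inside this interval at this depth.

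Tdg (Entrez 21665, chromosome 10, 82629814 to 82650799), the thymine DNA glycosylase, had 45.6, 47.8, 51.3 and 47.9 CPM in FA libraries 2, 3, 4 and 6, and 44.2, 43.6, 41.9 and 57.0 CPM in DE libraries 1, 3, 5 and 7. In DE 3 libraries lay below the whole FA range and 1, DE library 7, lay above it. The log2 fold change was -0.05 (SE 0.11, 95% interval -0.29 to 0.20, edgeR adjusted p = 0.820), and its sign changed in 4 of 21 other analyses: library totals alone, the number as a term, the number 11 libraries alone and the fit without DE library 5. A near copy, Tdg-ps2, held 1878 counts over the 8 libraries against 10277 for Tdg, so reads could have been split between them.

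Of 16 genes of base excision repair, which completes the work of MBD4 and TDG, 2 were called higher and 1 lower, with a median of 0.07. An unadjusted p under 0.05 was found for 6 of the 16, and DESeq2 called 4. Neil3, a glycosylase of replicating cells, was 0.50 higher (edgeR adjusted p = 0.0483) and Fen1, the flap nuclease that also processes Okazaki fragments, 0.54 higher (edgeR adjusted p = 0.0313). Lig3, the ligase that works with Xrcc1, was at 34.4 to 43.1 CPM in FA and 23.4 to 32.7 CPM in DE and fell by 0.58 on the log2 scale (edgeR adjusted p = 0.0266). The calls did not hold without some libraries: Neil3 without FA 2, 3 or 4, or DE 1, 3 or 5 (adjusted p up to 0.143), Fen1 without FA 2, 3 or 4, or DE 3, 5 or 7 (up to 0.105), and Lig3 without FA 2 or 4, or DE 3 or 5 (up to 0.0943). In those fits the log2 fold changes were 0.41 to 0.52 for Neil3, 0.46 to 0.56 for Fen1 and -0.57 to -0.53 for Lig3. In the libraries of number 11, with the number as a term, and with the 25% built into the test 0 of the 16 were called, though in the libraries of number 11 Neil3 was at 0.53, Fen1 at 0.47 and Lig3 at -0.43. The 2 most abundant genes of the list, Parp1, a sensor of strand breaks, and Polb, the gap-filling polymerase, were at -0.04 and 0.06 and were not called (-0.15 and -0.0038 in the libraries of number 11).

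Zbtb33 (Entrez 56805, chromosome X, 38189793 to 38197046) encodes Kaiso, which binds methylated CpG pairs through zinc fingers. It had 49.0, 38.3, 48.4 and 38.5 CPM in FA libraries 2, 3, 4 and 6, and 38.9, 25.9, 27.6 and 46.4 CPM in DE libraries 1, 3, 5 and 7. DE libraries 3 and 5 lay below every FA library, whereas DE libraries 1 and 7 lay within the FA range. The log2 fold change was -0.33 (SE 0.18, 95% interval -0.73 to 0.06, edgeR adjusted p = 0.270), the lowest of the members. It ran from -0.22 without DE library 3 to -0.51 without DE library 7 (edgeR adjusted p = 0.0853). In the libraries of number 11 it was -0.04 (edgeR adjusted p = 0.937), since the mean was 42.6 CPM in the 2 DE libraries of number 11 and 26.7 CPM in the 2 of number 12. The gene overlaps its neighbour Tmem255a by 474 bases.

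Zbtb33 and Mbd3 followed the trend of each library with transcript length. This trend, the log2 change in expression per doubling of transcript length, was 0.169, -0.076, 0.150 and -0.022 in FA libraries 2, 3, 4 and 6, and 0.053, -0.139, -0.178 and 0.043 in DE libraries 1, 3, 5 and 7. Within groups its correlation was 0.89 with Zbtb33, -0.98 with Mbd3 and 0.69 with Mbd1, and -0.91 between Zbtb33 and Mbd3, each over 8 libraries that share the same scaling. For Uhrf1 and Dnmt1 it was -0.07 and 0.28. With offsets for length and GC content, under which 11.1% of genes were called (5.78% higher and 5.34% lower), Zbtb33 was at -0.21 (edgeR adjusted p = 0.191), and Uhrf1 at 0.99 and Dnmt1 at 0.51 were called as before.

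**Figure D5:**
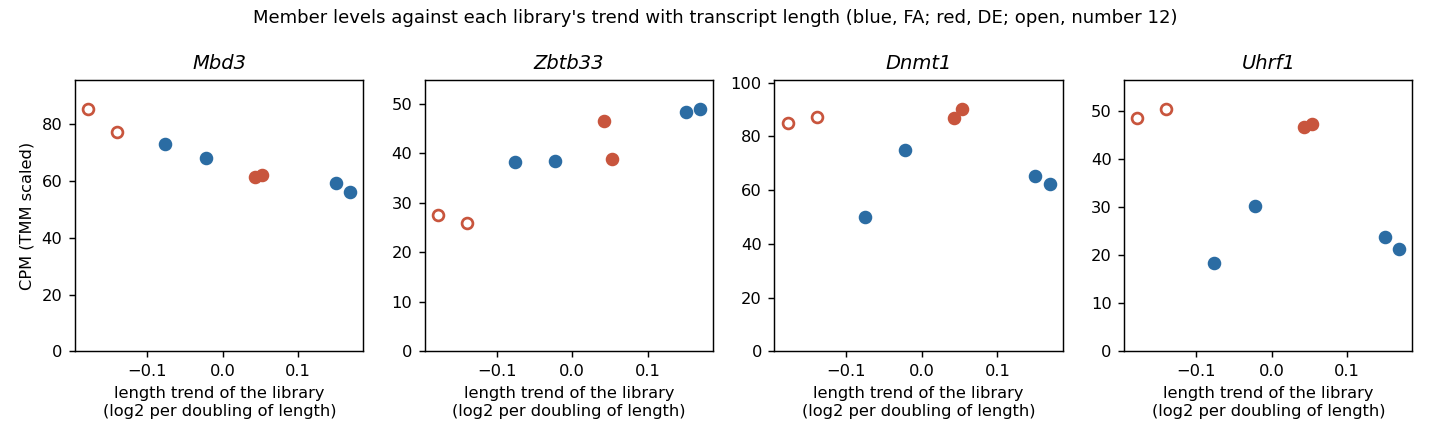
Level in TMM-scaled CPM (axis from 0) of Mbd3, Zbtb33, Dnmt1 and Uhrf1 against each library's trend with transcript length (blue, FA; red, DE; open circles, DE libraries 3 and 5). Mbd3 falls and Zbtb33 rises along the axis across both groups, whereas Uhrf1 and Dnmt1 separate by group.

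The letters of a Kaiso site, TCTCGCGAGA, were in 0.466% of all windows. Among the members with a window only Uhrf2 held them, at position -73 from its transcript start. The 30 bases around the match, with its letters in capitals, lie in no GENCODE exon of the gene but within its RefSeq span, which begins at the first base shown.
Uhrf2 site, chr19:30030430-30030459, plus strand: cccgcgtggaTCTCGCGAGAtccgggttgg

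Of 8 partners of MBD1 and Kaiso 1 was called, Chaf1a, the large subunit of the replication-coupled histone chaperone that MBD1 binds. It was at 9.17 to 11.5 CPM in FA and 16.0 to 18.2 CPM in DE, 0.75 higher (SE 0.11, edgeR adjusted p = 0.00443), and was called in all 8 fits that left out a library. Setdb1, the methyltransferase that MBD1 recruits, was at -0.28, and its cofactor Atf7ip at -0.47, neither called. Of the corepressor complex that Kaiso recruits, Ncor1 was at -0.35, Hdac3 at 0.03 and Tbl1x at -0.31, and Ctnnd1, the catenin that binds Kaiso, was at -0.22, with 0 of these 4 called. The median of the list was -0.25, and 4 of the 8 genes had an unadjusted p under 0.05. In the libraries of number 11 Tbl1x turned to 0.17, and the others were smaller, with Setdb1 at -0.16, Atf7ip and Ncor1 at -0.15, Hdac3 at 0.01 and Ctnnd1 at -0.03. Atf7ip, at -0.32, was called lower once offsets were used.

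The enzymes that set methylation anew or remove it were not called by edgeR. Of 6 genes 5 passed the filter, with a median of -0.47 and 3 at an unadjusted p under 0.05, and DESeq2 and the likelihood ratio test called 2 of them lower, Tet1 and Dnmt3a. Tet1, which oxidises methylcytosine, was at 82.9, 50.7, 75.1 and 56.1 CPM in FA libraries 2, 3, 4 and 6, and 46.4, 27.1, 27.7 and 51.6 CPM in DE libraries 1, 3, 5 and 7, so that only DE library 7 reached into the FA range. Its log2 fold change was -0.80 (SE 0.23, edgeR adjusted p = 0.0639), and it was called lower with offsets, at -0.51 (edgeR adjusted p = 0.00498). Tet2 was at -0.48 and Tet3 at -0.36. In the libraries of number 11, without DE libraries 3 and 5, these 3 differences were smaller, at -0.44 for Tet1, -0.14 for Tet2 and -0.01 for Tet3. Dnmt3a, the main de novo methyltransferase here, was at 112 to 177 CPM in FA and 98.8 to 115 CPM in DE, a log2 fold change of -0.47 (edgeR adjusted p = 0.0826). Dnmt3b, its less abundant relative, was at 0.38 (edgeR adjusted p = 0.177) and at 0.21 in the libraries of number 11, and Dnmt3l, a cofactor of germ cells, was below the filter.

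Of 5 further readers 0 were called by edgeR or DESeq2 and 2 had an unadjusted p under 0.05, with a median of -0.27. Mbd5 and Mbd6, whose domains do not bind methylated DNA, were at -0.56 and -0.11, and the Kaiso relatives Zbtb4 and Zbtb38 at 0.06 and -0.77. Mbd5 was at -0.23, Zbtb38 at -0.22, Mbd6 at -0.26 and Zbtb4 at 0.01 in the libraries of number 11. Mbd5 was called lower with offsets, at -0.39 (edgeR adjusted p = 0.0316).

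Of 6 genes that supply methyl groups 0 were called by edgeR and 1, Ahcy, by DESeq2, with a median of -0.11 and 2 at an unadjusted p under 0.05. Ahcy, the hydrolase that clears the S-adenosylhomocysteine inhibiting methyltransferases, was at 27.5 to 33.8 CPM in FA and 36.0 to 39.6 CPM in DE. Its groups did not overlap, with a log2 fold change of 0.32 (edgeR adjusted p = 0.0738). Mat2a and Mat2b, which make S-adenosylmethionine, were at -0.05 and -0.24. Mtr and Mtrr, of the folate-linked arm, were at -0.50 and -0.15. Mat2a turned to 0.04 in the libraries of number 11, where Mat2b was at -0.08 and Mtr at -0.15.

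Germline genes known to be kept silent by promoter methylation in somatic cells were also counted. Of 12, 4 passed the filter, 7 were below it and 1, Asz1, had 0 counts in all libraries. By edgeR and by DESeq2 0 of the 4 were called, with 1 at an unadjusted p under 0.05. The whole list summed to 10.03 to 14.7 CPM in FA and 9.83 to 13.96 CPM in DE. The 2 most abundant, Sycp3 of the synaptonemal complex and Brdt, a testis bromodomain protein, were at -0.34 (edgeR adjusted p = 0.225) and -0.01 (edgeR adjusted p = 0.991), the latter at 0.20 in the libraries of number 11.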

How the data were processed

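RNA-seq was performed on NCMs of 8 neonates, 4 FA and 4 DE, though the methods name fewer samples a group. Per the labels, poly-A libraries were made with a stranded kit. The authors aligned reads to mm10 with TopHat, marked but kept duplicates, and counted fragments per Entrez gene with featureCounts. The table they deposited holds these raw counts, not normalized. The annotation used for counting, strand setting and treatment of reads mapping to several places are not given in the sources used here. Duplicates in the counts are not independent molecules.

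Symbols, coordinates and promoter windows came from RefSeq tables on GRCm38.p6, and exon lengths from GENCODE M21. Of 27179 genes 25275 had a symbol. Counts of 14966 genes kept by filterByExpr (minimum 10 counts) were TMM scaled and tested with edgeR 4.0.16 in R 4.3.3, with a single term for exposure and p-values adjusted (Benjamini-Hochberg) over the 14966 genes. The biological coefficient of variation was 15.9%. Ratios of CPM were tested by exact two-sided permutation over libraries (scipy 1.17.1), adjusted over 5 ratios. The scripts were tested on simulated data.

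The members and lists were chosen with earlier results of these data known. Text names all members, all genes of pathway lists of 8 or fewer, and in longer pathway lists the called genes and the 2 with the highest mean CPM, with exceptions stated, and of cell type markers those called by edgeR or below the filter, and 2 called with offsets, with other marker calls given as counts. Of the genes this rule names, 4 are not reported here. Alternatives comprised DESeq2 1.42.0, the likelihood ratio test of edgeR, limma-voom (limma 3.58.1), the 25% difference built into the test, other scaling factors (RLE, upper quartile, library totals alone), no filter, a mean of at least 1 CPM, a term for the number in the sample name, the number 11 libraries alone, and each library left out. Offsets for length and GC content (13851 genes) were chosen after seeing the data. P-values measure the spread between these libraries.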

Additional observations from a re-analysis of the deposited data

Results flagged for a closer look

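Of the 18 groups of 4 libraries checked (9 members in FA and in DE), 1 held a library far from the other 3. For Tdg, DE library 7 was at 57.0 CPM against 41.9 to 44.2 CPM in DE libraries 1, 3 and 5, and its gap to the nearest library was 0.846 of the group's range, above Dixon's 95% critical value for 4 samples. Chance alone flags about 5% of such groups. The cause was not tested.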

How the results depend on the processing

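No paired analysis was possible because FA and DE libraries share only 1 replicate number. Uhrf1 was called higher in all 21 alternatives, and the 7 other members besides Dnmt1 were called in none. Called members numbered 1, Uhrf1, with the 25% difference built into the test, with the number in the sample name as a term and with the number 11 libraries only, and 1 to 2 when a library was left out. Dnmt1's edgeR adjusted p was 0.458, 0.0865 and 0.131 in the first 3 of these.

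Against 868 genes called in all, the count was 1633 with DESeq2, 1603 with the likelihood ratio test, 114 with the 25% built in, 448 with the number as a term, 260 with number 11 alone, 1540 with offsets for length and GC content, and 237 to 1168 without 1 library. Against 21 calls in the lists around the members, there were 7 with the 25% built in, 12 with the number as a term, 8 with number 11 alone and 12 to 24 without 1 library.

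With number 11 alone, the log2 differences of Uhrf1/Dnmt1, Uhrf1/Uhrf2 and Uhrf1/S-phase mean were 0.53, 1.05 and 0.35 (exact permutation, adjusted p = 0.222 each). Without 1 library they ran from 0.55 to 0.63, 0.998 to 1.254 and 0.32 to 0.38. Neither design can pass the threshold after adjustment, as fewer libraries raise the smallest p. Dnmt1/S-phase mean was -0.16 with offsets (exact permutation, adjusted p = 0.0357). Mbd4 had the fewest counts of the members, 71 to 172 per library.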
